A study of Sus scrofa with 18 samples.

Results

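The receptors through which acetylcholine, endothelin, angiotensin, serotonin, neurokinin A and neuromedin U act on smooth muscle were followed at their genes in pig myometrium, the muscle wall of the uterus. The 10 genes are CHRM2 and CHRM3 (muscarinic acetylcholine receptors), EDNRA and EDNRB (endothelin), AGTR1 (angiotensin II), HTR2A, HTR2B and HTR4 (serotonin), TACR2 (neurokinin A) and NMUR2 (neuromedin U). They were found by symbol among the 19550 protein-coding genes that RefSeq places on the named chromosomes of Sscrofa11.1, and all 10 were placed. The genes were chosen by name with earlier results of the same peak lists in view, so their levels are given as descriptions and no test was run on them.

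The chromatin of Yorkshire gilts was profiled on day 15 in 3 groups of 2 gilts each. GD15M_CM is the inner circular muscle of pregnant gilts, GD15M_LM is the outer longitudinal muscle of pregnant gilts, and CD15M_CM is the circular muscle of cyclic, unmated gilts on the matching day of their estrous cycle. All came from the mesometrial side of the uterus after the endometrium had been cut away, and pregnancy had followed natural mating. The age of the gilts is not given in the sources used here. H3K4me3, a histone mark of promoters, and H3K27ac, a mark of active promoters and enhancers, were measured by CUT&Tag, in which an antibody directs the Tn5 enzyme to cut and tag the DNA beside the mark. An IgG control accompanied every sample, which makes 18 libraries. Peaks were called after reads of both gilts had been combined, so that each group and mark has 1 peak list, no value here has a replicate error, and differences between groups may be differences between gilts. Whether both layers of pregnant muscle came from the same gilts is not given for these profiles in the sources used here, although the labels number the samples of each layer alike.

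These receptors span the membrane and hand their signal to G proteins. CHRM3, EDNRA, EDNRB, AGTR1, HTR2A, HTR2B, TACR2 and NMUR2 couple mainly to Gq, which activates phospholipase C, releases stored calcium and so contracts smooth muscle. CHRM2 couples to Gi, which restrains cAMP, and HTR4 couples to Gs, which raises cAMP and favours relaxation. In the uterus, circular and longitudinal layers are known to differ in their nerves and in their response to these transmitters.

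The number of H3K4me3 peaks per list was between 31910 and 36331, and that of H3K27ac peaks between 57010 and 82037. A value for a gene is the highest fold enrichment over IgG of a peak between 3 kb before and 3 kb after the gene. Because fold enrichments of different lists are not on a common scale, the value was also ranked as a percentile among all peaks of its own list, where 0 stands for a gene without a listed peak. The median fold enrichment of H3K4me3 was 4.86 in GD15M_CM, 5.66 in GD15M_LM and 4.64 in CD15M_CM. Depth of a single library cannot be read from the lists, so a missing peak says only that none was called. In whole tissue, fewer cells of a type and less mark per cell cannot be told apart. The reference used here gives no strand, so the start and the end of a gene are not distinguished, and the end that carries H3K4me3 is called the marked end.

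Tissue identity was checked on marker genes. All 8 smooth muscle markers (MYH11, ACTA2, ACTG2, DES, CNN1, TAGLN, SMTN and MYOCD) had peaks of both marks in every list. Their median H3K4me3 percentile was 77 in GD15M_CM, 89 in GD15M_LM and 85.6 in CD15M_CM. Epithelial markers (EPCAM, CDH1, KRT8, KRT18 and FOXA2) had H3K27ac peaks at 5 of 5 genes in both circular groups and at 3 of 5 in GD15M_LM, with median percentiles of 76.2 in GD15M_CM, 52.8 in CD15M_CM and 7.45 in GD15M_LM. The 4 T cell markers had median H3K4me3 percentiles of 67 in GD15M_CM, 59.7 in GD15M_LM and 54.7 in CD15M_CM. Endothelial markers varied little between the groups in H3K4me3, with medians of 62.3 in GD15M_CM, 61.9 in GD15M_LM and 65.5 in CD15M_CM. Their H3K27ac medians were farther apart, with 43.1, 54.2 and 68.4 in the same order. Taken gene by gene, however, the median H3K27ac difference of GD15M_CM from CD15M_CM was 1.01 points. Genes that mark other cell types thus had peaks in tissue labelled as muscle, and how many such cells it held was not measured.

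At the 10 receptor genes, H3K4me3 separated 6 genes that were marked in every group (CHRM2, CHRM3, EDNRA, EDNRB, AGTR1 and HTR2A), 1 gene that was marked in cyclic muscle alone (NMUR2) and 3 genes with no H3K4me3 peak in any group (HTR2B, HTR4 and TACR2). H3K4me3 was thus listed at 6 genes in GD15M_CM, 6 in GD15M_LM and 7 in CD15M_CM, where 73.7%, 74.6% and 75.4% of all protein-coding genes had a peak. H3K27ac was listed at 9, 8 and 9 of the 10 genes in the same order, against 73.9%, 73.1% and 75.8% of all genes. The median H3K4me3 percentile of the 10 genes was 57.3 in GD15M_CM, 74.6 in GD15M_LM and 69.2 in CD15M_CM, and that of all genes was 73.5, 72.1 and 75.8. For H3K27ac the receptor medians were 62.4, 73.8 and 78.6 and those of all genes 77.9, 72.6 and 76.9. In GD15M_CM the receptor medians lay below those of all genes for both marks, whereas in GD15M_LM they lay slightly above. In CD15M_CM the receptor median lay below that of all genes for H3K4me3 and slightly above it for H3K27ac.

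**Figure D1:**
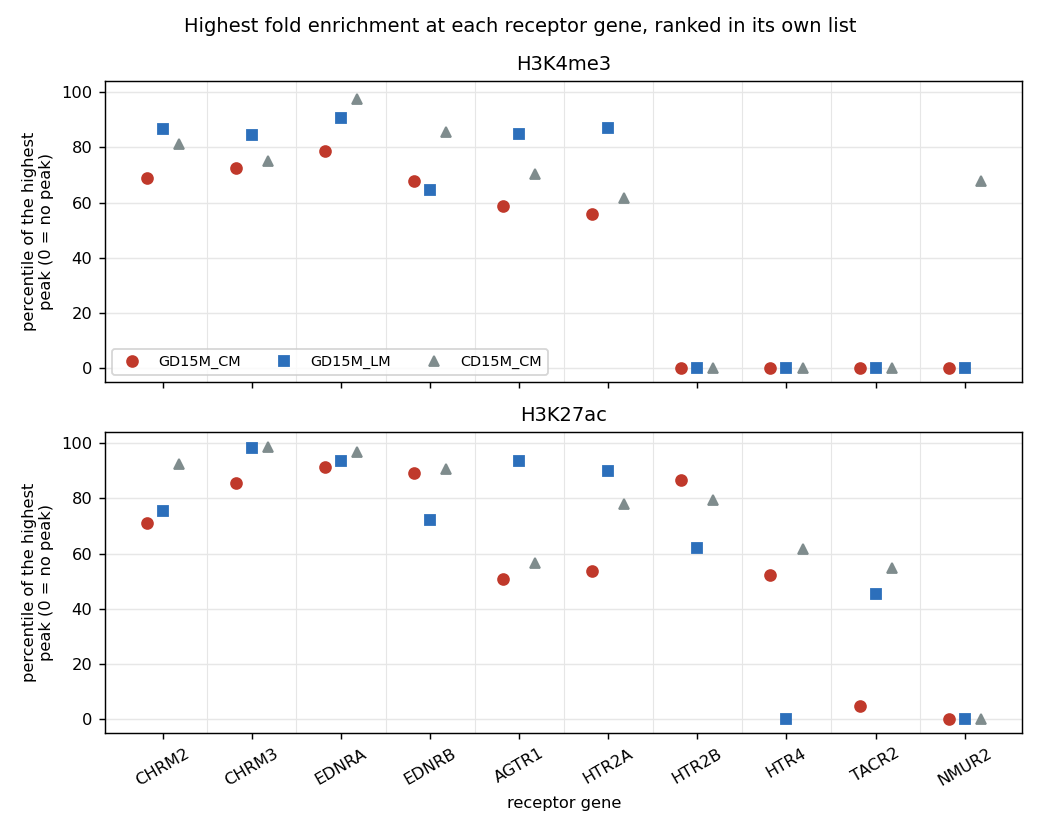
The percentile of the highest peak at each receptor gene (vertical axis, 0 for no peak) is shown for H3K4me3 in the upper panel and H3K27ac in the lower one, with 1 point per group. GD15M_CM (circles) has the lowest H3K4me3 point at 5 of the 6 genes marked in all groups, and only CD15M_CM (triangle) has a point above 0 at NMUR2.

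The plot of percentiles by gene shows that the groups were close at some receptors and far apart at others. Among the 6 genes marked throughout, the H3K4me3 percentile spanned from 12.2 points at CHRM3 to 31 points at HTR2A over the 3 groups.

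CHRM2, the Gi-coupled muscarinic receptor, lies on chromosome 18 at 12455139 to 12600314. It spans 145 kb and contains the microRNA gene MIR490-1. Its H3K4me3 peak covered the high-coordinate end, where the lncRNA gene LOC100621475 (12599771 to 12601402) overlaps the receptor gene, so the mark cannot be assigned to either of them. The fold enrichment was 10.7 in GD15M_CM, 23.5 in GD15M_LM and 19.2 in CD15M_CM, at percentiles of 69, 86.7 and 81.3. Its length was 2167, 3002 and 2977 bp in the same order, so that pregnant circular muscle had the lowest and shortest of the 3 peaks.

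H3K27ac at CHRM2 was arranged differently in the groups. At the marked end the highest percentile was 71 in GD15M_CM, 74.2 in GD15M_LM and 24.2 in CD15M_CM, although the peaks of CD15M_CM covered more of that end (2522 bp) than those of GD15M_CM (1044 bp). A pair of further peaks stood deep in the gene. The peak at 12473966 to 12474488 reached a percentile of 92.4 in CD15M_CM, the peak at 12473891 to 12474423 reached 6.3 in GD15M_LM, and none was listed there in GD15M_CM. The other, at 12470700 to 12471088 in CD15M_CM, had a percentile of 88.4, and its counterpart in GD15M_LM had 75.3. The highest H3K27ac value of CHRM2 therefore came from inside the gene in CD15M_CM and GD15M_LM and from the marked end in GD15M_CM. Over the whole window H3K27ac was 21.5 points higher in CD15M_CM than in GD15M_CM, while at the marked end the order was the opposite.

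CHRM3, the Gq-coupled muscarinic receptor that drives cholinergic contraction, is the longest of the 10 genes, with 545 kb on chromosome 14 (51818625 to 52363662). Its H3K4me3 stood at the high-coordinate end, with fold enrichments of 12.2 in GD15M_CM, 22.3 in GD15M_LM and 15.7 in CD15M_CM. Its percentiles were 72.4, 84.6 and 75.2, and the covered lengths were 2977, 4531 and 3855 bp in the same order. The circular groups were 2.8 points apart, and GD15M_LM stood above both.

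The highest H3K27ac percentile of CHRM3 was 85.6 in GD15M_CM, 98.3 in GD15M_LM and 98.6 in CD15M_CM, a spread similar to that of H3K4me3. The groups lay farther apart in the number of H3K27ac peaks. The window held 6 H3K27ac peaks in GD15M_CM, 18 in GD15M_LM and, as the highest number, 29 in CD15M_CM, of which 4, 17 and 28 lay inside the gene away from its ends. Together these peaks covered 2519, 10806 and 14440 bp. Their median percentiles were close to each other, with 56.3, 58.9 and 53.7. Percentiles of 75 or more were reached by 1 peak in GD15M_CM and by 5 in each of the other groups.

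At the marked end of CHRM3 the highest H3K27ac percentile was 98.3 in GD15M_LM and 93.3 in CD15M_CM, against 40.6 in GD15M_CM. A second strong site lay deep inside the gene, far from the marked end. It had a fold enrichment of 7.57 (percentile 98.6) at 51839761 to 51840373 in CD15M_CM and of 7.76 (percentile 96.6) at 51839630 to 51840223 in GD15M_LM. The overlapping peak of GD15M_CM, at 51839852 to 51840234, had 3.78 (percentile 61.7). A peak at 52103131 to 52103573 ran the other way and was highest in GD15M_CM (percentile 85.6), followed by GD15M_LM (54.1) and CD15M_CM (1.73).

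Overlapping peaks of the 3 lists were joined into sites to ask where the groups shared H3K27ac. CHRM3 had 31 sites, of which 4 were found in all groups, 11 in CD15M_CM and GD15M_LM without GD15M_CM, 12 in CD15M_CM alone, 3 in GD15M_LM alone, 1 in both circular groups and 0 in GD15M_CM alone. The 11 sites missing from pregnant circular muscle only were 35.5% of the sites, and this class made up 7.18% of the 78303 sites in the windows of all protein-coding genes. Sites in all groups were 12.9% at CHRM3 and 33.9% in all windows, and those of CD15M_CM alone 38.7% and 19.4%. In the same order, GD15M_LM alone made up 9.68% and 5.16%, both circular groups 3.23% and 12%, and GD15M_CM alone 0% and 20.8%. When the same number of top peaks was taken from each list, CHRM3 kept 4, 18 and 16 peaks in GD15M_CM, GD15M_LM and CD15M_CM, and under a strict threshold, which asked for 10 or more in −log10 p and 5 or more in fold enrichment, it kept 0, 3 and 3. The order of GD15M_LM and CD15M_CM thus depended on how the lists were cut, while GD15M_CM had the fewest peaks each time.

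**Figure D2:**
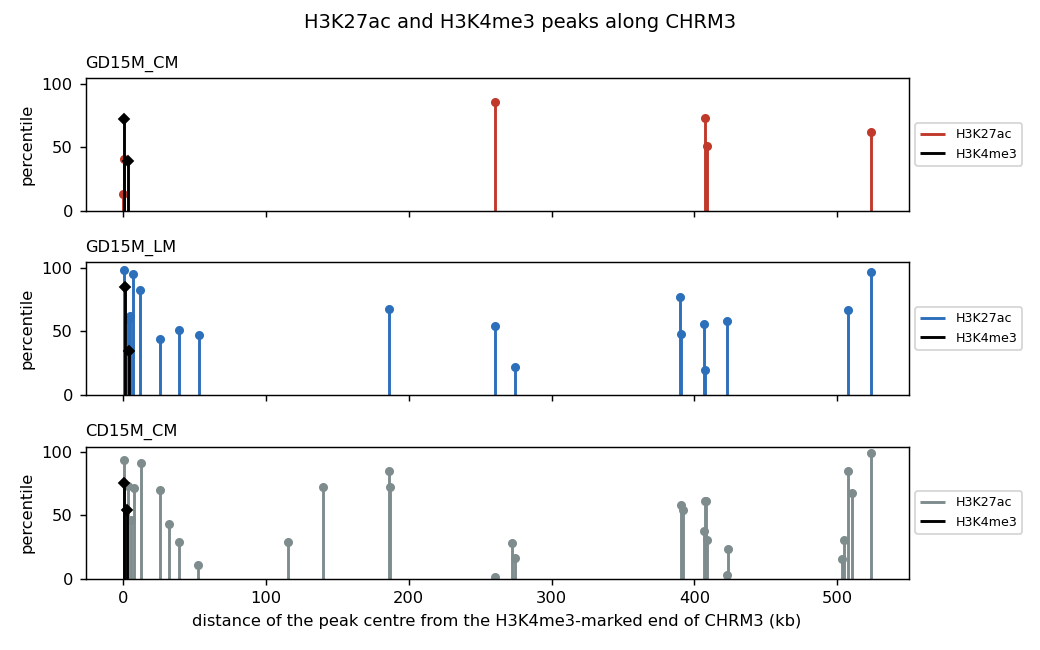
Peaks along CHRM3 are drawn at the distance of their centre from the marked end (horizontal axis, kb), with the percentile in their own list as height, H3K27ac in colour and H3K4me3 in black. GD15M_CM has 6 H3K27ac peaks, GD15M_LM has 18 and CD15M_CM has 29.

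The map of CHRM3 shows that GD15M_LM and CD15M_CM had peaks at the marked end and at intervals along the inside of the gene, whereas the few of GD15M_CM were spread over the same length with wide gaps.

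EDNRA, the endothelin receptor of smooth muscle that mediates contraction, spans 68.3 kb on chromosome 8 (81210750 to 81279053). It had the highest H3K4me3 of the 10 genes in every group. The fold enrichment was 15 in GD15M_CM, 26.1 in GD15M_LM and 33.4 in CD15M_CM, at percentiles of 78.6, 90.6 and 97.4. The peak grew in length from 3076 bp in GD15M_CM and 3176 bp in GD15M_LM to 4104 bp in CD15M_CM. It lay wholly inside the gene, between 81273868 and 81277971 in CD15M_CM, near the high-coordinate end. H3K27ac overlapped it with percentiles of 91.4, 93.6 and 96.7, so H3K27ac at this end was high in all groups. Farther inside, GD15M_CM had peaks that GD15M_LM lacked, and EDNRA held 8 H3K27ac peaks in this group, 1 in GD15M_LM and 3 in CD15M_CM. A site at 81264261 to 81264861 was shared by the circular groups, at a percentile of 94.3 in CD15M_CM and 83.2 in GD15M_CM.

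EDNRB, the endothelin receptor known from endothelium and from neural crest cells and also found on smooth muscle, spans 29.6 kb on chromosome 11 (50073300 to 50102879). Its H3K4me3 fold enrichment was 10.1 in GD15M_CM, 11.7 in GD15M_LM and 21.5 in CD15M_CM. Percentiles were 67.9, 64.6 and 85.4, which made EDNRB the exception among the 6 genes, since GD15M_LM and not GD15M_CM was lowest. Ranked by −log10 p, however, GD15M_LM stood 3.64 points above GD15M_CM. The covered length was nevertheless shortest in GD15M_CM (3515 bp, against 4563 bp in GD15M_LM and 4461 bp in CD15M_CM). At the marked end, the highest H3K27ac percentile was 24.5 in GD15M_CM, 72.3 in GD15M_LM and 90.8 in CD15M_CM. GD15M_CM had its highest value of the window, a percentile of 89.4, instead in a 325 bp peak near the low-coordinate end (50075961 to 50076285), where CD15M_CM had 79.3 and GD15M_LM had no peak. The part of endothelium in the EDNRB values was not tested, and the 5 endothelial markers (PECAM1, CDH5, VWF, TIE1 and TEK) had a median H3K4me3 difference of −3.18 points between GD15M_CM and CD15M_CM.

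AGTR1, the receptor through which angiotensin II contracts smooth muscle, spans 45.4 kb on chromosome 13 (88934873 to 88980317) and was marked at its low-coordinate end. Its H3K4me3 fold enrichment was 6.34 in GD15M_CM, 22.4 in GD15M_LM and 12.9 in CD15M_CM, at percentiles of 58.6, 84.8 and 70.5. H3K27ac at the same end was 3.52, 6.93 and 3.69, at percentiles of 50.9, 93.7 and 56.6. By fold enrichment, longitudinal muscle was highest in both marks, by 26.2 points of H3K4me3 and 42.8 points of H3K27ac above GD15M_CM. Ranked by −log10 p, H3K4me3 of AGTR1 was at 71.5 in GD15M_LM and 71.3 in CD15M_CM, with GD15M_CM at 63.3, so that longitudinal muscle was then level with cyclic circular muscle. In GD15M_LM a single H3K27ac peak of 1291 bp ran from 88934896 to 88936186, while GD15M_CM had 3 short peaks that covered 803 bp together.

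HTR2A, the Gq-coupled serotonin receptor of smooth muscle, spans 64.3 kb on chromosome 11 (20555939 to 20620225) and contains the lncRNA gene LOC110255812. Its H3K4me3 fold enrichment was 5.69 in GD15M_CM, 23.7 in GD15M_LM and 7.14 in CD15M_CM, at percentiles of 56, 87 and 61.5. In GD15M_LM this was 1 peak of 3736 bp, and in the circular groups the same stretch was listed as a pair of peaks that covered 2762 bp in GD15M_CM and 3124 bp in CD15M_CM. H3K27ac was 3.59, 6.3 and 4.47, at percentiles of 53.9, 90.1 and 78. The covered H3K27ac length was 420, 2149 and 3166 bp. Both marks of HTR2A thus stood highest in longitudinal muscle, with the widest H3K27ac in cyclic circular muscle.

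**Figure D3:**
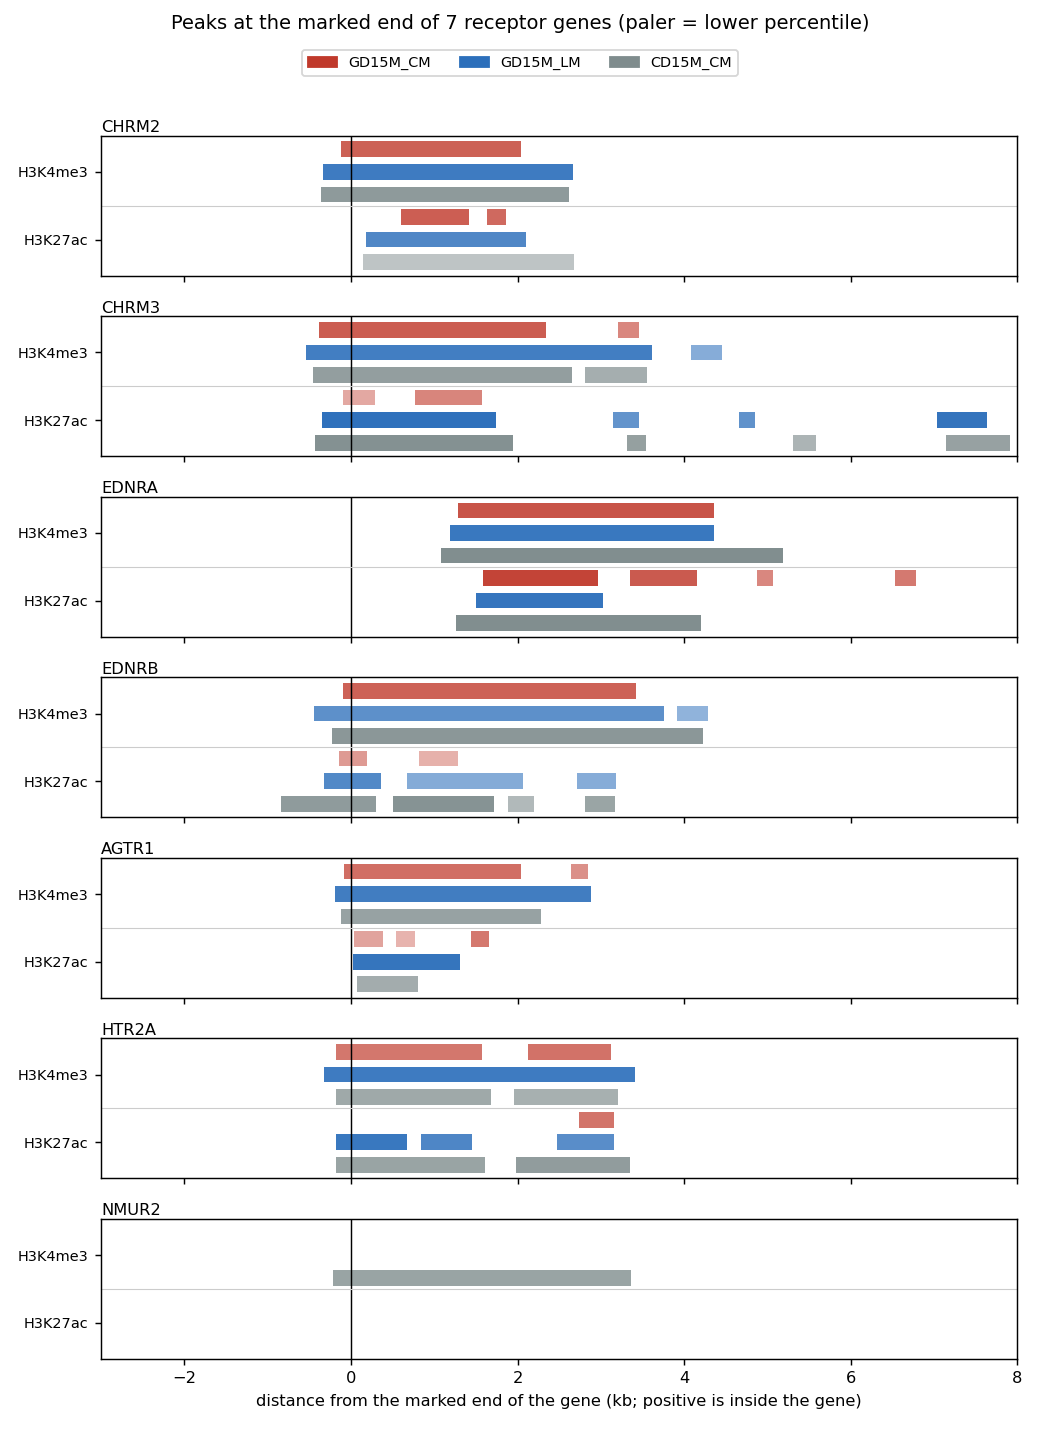
Peaks within 3 kb outside and 8 kb inside the marked end of 7 receptor genes are drawn as bars along the distance from that end (kb, positive inside the gene), coloured by group and paler where the percentile is lower. The H3K27ac bars of GD15M_CM are short or pale at CHRM3, EDNRB, AGTR1 and HTR2A, and NMUR2 has a bar in CD15M_CM alone.

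As drawn in the map of marked ends, H3K27ac lay within or beside H3K4me3 at all 6 genes marked throughout. Its highest percentile there was lowest in GD15M_CM at CHRM3, EDNRA, EDNRB, AGTR1 and HTR2A, and in CD15M_CM at CHRM2.

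NMUR2, a neuromedin U receptor best known from brain and gut, spans 12.6 kb on chromosome 16 (70659732 to 70672346). Its only peak of either mark was an H3K4me3 peak of 3577 bp in CD15M_CM, at 70659512 to 70663088 over the low-coordinate end. The fold enrichment was 11.1 (percentile 67.9) and −log10 p was 41.7. In the pregnant groups the nearest H3K4me3 peaks were 602 kb away in GD15M_CM and 600 kb in GD15M_LM, and H3K27ac came no nearer than 158 kb in any group. H3K4me3 in CD15M_CM without a peak in either pregnant group was found at 178 protein-coding genes (0.91%), with a median percentile of 30.6 among them. NMUR2 ranked 5 from the top of these genes. As lists of pooled gilts cannot show whether both cyclic gilts carried the peak, this was not tested, and the peak of NMUR2 was already known when the 10 genes were chosen.

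The genes whose 6 percentiles lay nearest to those of NMUR2, by Euclidean distance over both marks and 3 groups, were IRS4 (an insulin receptor substrate) at 8.34 points, FABP7 (a fatty acid binding protein) at 8.7 points and FOXA1 (a forkhead factor of epithelia) at 10.7 points. Their H3K4me3 percentiles in CD15M_CM were 59.5, 76.6 and 59.5. None of them had H3K27ac in any group, which reflects how they were chosen, since NMUR2 itself had none. FOXA1 also had a weak H3K4me3 peak in GD15M_CM (percentile 6.71).

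HTR2B, HTR4 and TACR2 had H3K27ac without H3K4me3. HTR2B, a Gq-coupled serotonin receptor, spans 15.8 kb on chromosome 15 (131844578 to 131860417) and lies wholly inside PSMD1, a proteasome subunit gene (131807594 to 131912194). Its H3K27ac peaks cannot be assigned to either gene. The highest percentile was 86.8 in GD15M_CM, 61.9 in GD15M_LM and 79.3 in CD15M_CM, from 4, 1 and 3 peaks. HTR2B was the one receptor whose highest H3K27ac percentile was higher in GD15M_CM than in CD15M_CM, by 7.47 points. The nearest H3K4me3 peak was 34.7 kb away in both pregnant groups and 33.6 kb in CD15M_CM.

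HTR4, the Gs-coupled serotonin receptor, spans 45.5 kb on chromosome 2 (149768295 to 149813801). It had H3K27ac in the circular groups alone, and at different places. CD15M_CM had 3 peaks between 149769739 and 149773841, with a highest percentile of 61.6, and GD15M_CM had 2 peaks between 149807745 and 149808990, with a highest percentile of 52.4. The window value thus put GD15M_CM at −9.25 points from CD15M_CM although no H3K27ac site of HTR4 was common to them. In GD15M_LM the nearest H3K27ac peak was 34.2 kb away.

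TACR2, the neurokinin A receptor that contracts smooth muscle of gut, airway and uterus, spans 12.6 kb on chromosome 14 (72463405 to 72476034). Its window reaches the end of HK1, a hexokinase gene that stops at 72460927. Inside TACR2, H3K27ac had a fold enrichment of 3.64 (percentile 54.7) in CD15M_CM and 3.68 (percentile 45.5) in GD15M_LM, with peaks at 72468836 to 72469304 and 72468874 to 72469285. The only peak of GD15M_CM, 200 bp long at 72469395 to 72469594, did not overlap them and had 2.37 (percentile 4.82). A second peak of CD15M_CM, between HK1 and TACR2 at 72461849 to 72462463, had a percentile of 18. All of these peaks were of middle or low rank in their lists.

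Between pregnant and cyclic circular muscle, H3K4me3 was lower in GD15M_CM at each of the 6 receptor genes marked in all groups. NMUR2, marked in CD15M_CM alone, could differ in that direction only. A gene was called when its percentile differed by at least 20 points. By this rule 0 receptors were higher in GD15M_CM (2.14% of all genes) and 1, NMUR2, was higher in CD15M_CM (6.07%). Below that limit, the differences were −18.7 points at EDNRA, −17.5 at EDNRB, −12.3 at CHRM2, −12 at AGTR1, −5.48 at HTR2A and −2.8 at CHRM3. The median over the 10 genes was −8.73 points, and over all genes it was 0, with 45.1% of genes lower in GD15M_CM and 31% higher. These shares include genes without a peak in either group, whose difference is 0. The share among genes marked in all groups, as the 6 receptors are, was not computed. The smooth muscle markers had a median difference of −9.38 points. Markers of interstitial cells and fibroblasts (−5.99 points), macrophages (−5.88), mesothelium (−5.29) and endothelium (−3.18) had the same sign, and those of epithelium (3.92) and T cells (12.3) the opposite one. The part of these cell types in the receptor differences was not tested.

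For H3K27ac the same comparison gave 0 receptors higher in GD15M_CM (11.2% of all genes) and 3 higher in CD15M_CM (12.1%). The 3 were TACR2 with −49.8 points, HTR2A with −24.1 and CHRM2 with −21.5. Ranked by −log10 p instead of fold enrichment, the difference of CHRM2 was −2.03 points and its call was lost, while AGTR1 (−47.1 points) and CHRM3 (−25.7) passed the limit. Under the strict threshold the differences of TACR2, HTR2A and CHRM2 became 0, since no peak was left. The calls were then CHRM3 (−89 points), EDNRA (−44.3) and EDNRB (−29.9), beside 15.7% of all genes. GD15M_CM kept a strict peak at EDNRA alone, so the values of CHRM3 and EDNRB set a peak against none. In a window with 10 kb on both sides, TACR2 was at −28 points. Of the other genes, CHRM3 differed by −13 points, HTR4 by −9.25, AGTR1 by −5.72, EDNRA by −5.34 and EDNRB by −1.43. In all, 8 receptors were lower in GD15M_CM and 1 higher, with a median of −7.48 points, while 39% of all genes were lower and 38.5% higher. The smooth muscle markers had a median of −6.52 points. Interstitial and fibroblast markers were at −14.1 points and mesothelial markers at −11.9, macrophage markers were at 0, and endothelial (1.01), T cell (6.43) and epithelial markers (37.8) lay above. The part of these cell types was not tested here either.

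Between the layers of pregnant gilts, AGTR1 and HTR2A had the largest H3K4me3 gaps, and HTR4 and AGTR1 the largest H3K27ac gaps. This comparison uses the same GD15M_CM lists as the one above, so the results are not independent of each other. H3K4me3 was at least 20 points higher in GD15M_LM at 2 receptors (5.64% of all genes), HTR2A with 31 points and AGTR1 with 26.2 points, and in GD15M_CM at 0 receptors (5.21%). By −log10 p these gaps were 14.7 points at HTR2A and 8.18 at AGTR1, so that neither reached the limit. CHRM2 stood 17.7 points, CHRM3 12.2 points and EDNRA 12 points higher in GD15M_LM, and EDNRB differed by −3.26 points. The median over the 10 genes was 5.99 points, where that of all genes was 0 and that of the smooth muscle markers 8.51. Markers of macrophages (7.02), mesothelium (6.75) and endothelium (0.455) had the same sign. Those of interstitial cells and fibroblasts (−2.13), T cells (−7.21) and epithelium (−22.5) had the opposite one. The part of these cell types in the receptor differences was not tested.

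H3K27ac was at least 20 points higher in GD15M_LM at 3 receptors (10.1% of all genes), AGTR1 with 42.8 points, TACR2 with 40.7 and HTR2A with 36.2. TACR2 fell to 18.8 points in a window with 10 kb on both sides and lost its call. Under the strict threshold TACR2 was at 0, and CHRM3 (91.3 points) and EDNRA (38.7) were called beside AGTR1 (68.3) and HTR2A (50). Of all genes, 20.6% were called so. As GD15M_CM kept a strict peak at EDNRA alone, the values of CHRM3, AGTR1 and HTR2A set a peak against none. H3K27ac was higher in GD15M_CM at 2 receptors (15.1%), HTR4 with −52.4 points and HTR2B with −24.9. Neither had a peak left under the strict threshold. CHRM3 stood 12.6 points, CHRM2 4.29 points and EDNRA 2.27 points higher in GD15M_LM, whereas EDNRB was at −17.1 points. By −log10 p the difference of CHRM3 was 26.5 points, and those of CHRM2 and EDNRA were −0.631 and −2.75 points. The windows of the serotonin receptors thus went in both directions, with HTR2A higher in longitudinal muscle and HTR2B and HTR4 higher in circular muscle. The peaks of HTR2B, however, cannot be told from those of PSMD1, and neither HTR2B nor HTR4 had H3K4me3 in any group. The epithelial markers had a median of −68.8 points in this comparison and the smooth muscle markers one of 3.97 points. Mesothelial markers were at 7.21 points, macrophage markers at 0, and T cell (−0.645), interstitial and fibroblast (−1.15) and endothelial markers (−8.47) lay below. The part of these cell types in the differences was not tested.

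**Figure D4:**
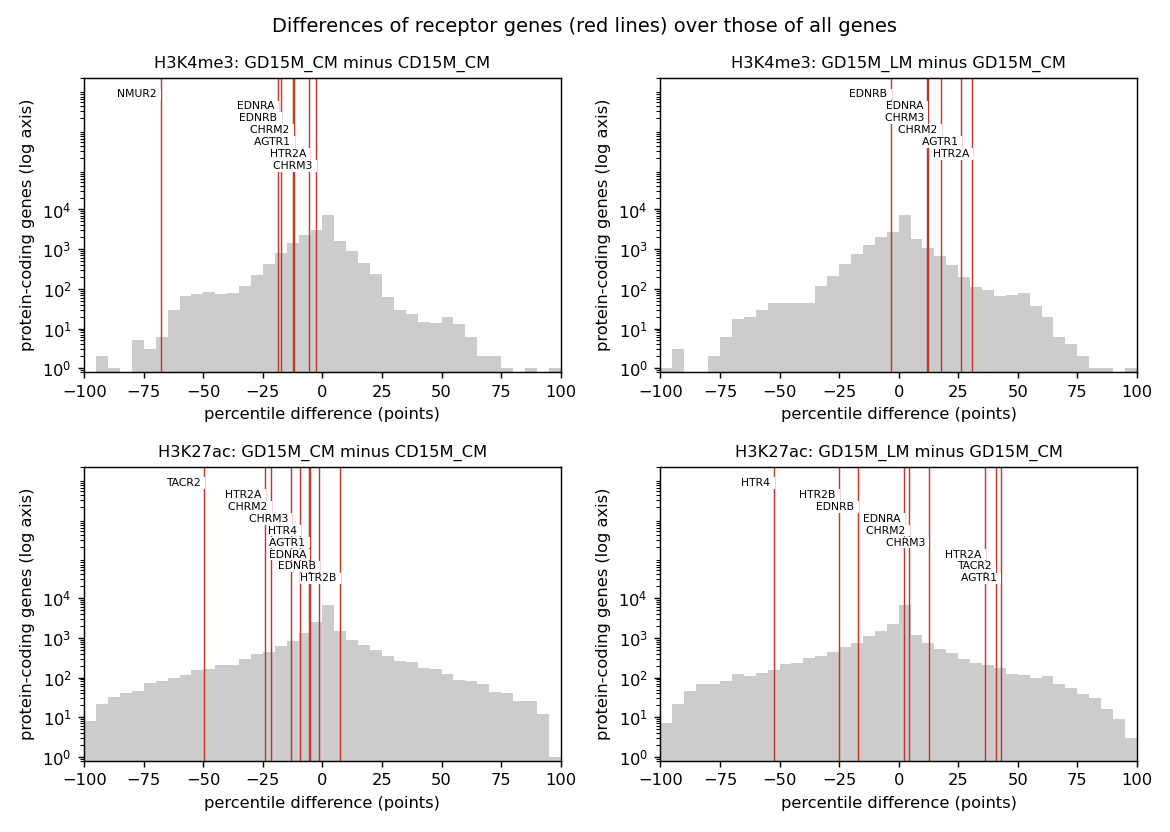
Grey bars count all protein-coding genes (vertical log axis) by percentile difference in steps of 5 points, and red lines mark the receptor genes with a peak in either group. In the upper left panel the lines of the 6 genes marked in all groups lie between −18.7 and −2.8 points, and NMUR2, marked in CD15M_CM alone, lies at −67.9 points.

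The histograms of differences place most receptors well within the spread of all genes. Counts out of 10 genes are coarse beside shares of all genes, which were 2.14% to 6.07% for H3K4me3 and 10.1% to 15.1% for H3K27ac. They also moved with the ranking: by −log10 p, 4 receptors were called higher in CD15M_CM than in GD15M_CM for H3K27ac (8.52% of all genes) and 4 higher in GD15M_LM than in GD15M_CM (5.95%).

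Of the 6 receptors with H3K4me3 in all groups, 5 had their lowest percentile in GD15M_CM, where 36.7% of the 14077 such genes did. All 6 had their shortest H3K4me3 cover in GD15M_CM, against 52.7% of these genes. The highest percentile was that of GD15M_LM at 4 of the 6 (CHRM2, CHRM3, AGTR1 and HTR2A), against 27.7%, and that of CD15M_CM at the endothelin receptors EDNRA and EDNRB. Pregnant circular muscle was thus most often lowest among these receptors. The order of the other groups also depended on the measure, as the covered length of EDNRB was greatest in GD15M_LM.

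**Figure D5:**
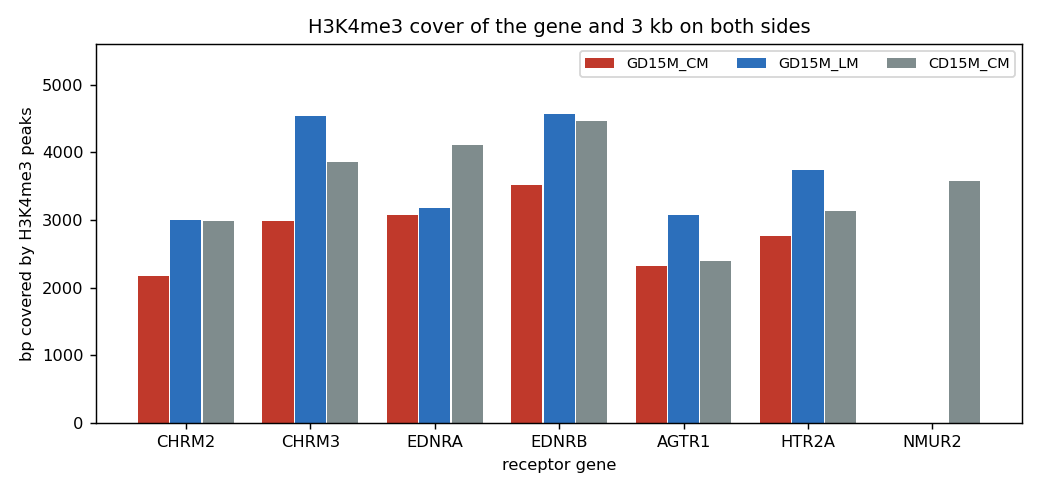
Bars give the length in bp covered by H3K4me3 peaks in the window of each receptor gene with this mark, 1 bar per group and without error bars because the gilts were pooled. GD15M_CM has the shortest bar at all 6 genes marked in every group, from 2167 bp at CHRM2 to 3515 bp at EDNRB.

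The bars of covered length differed least at AGTR1 between the circular groups (2324 and 2398 bp) and at EDNRA between the pregnant groups (3076 and 3176 bp). H3K4me3 peaks were also shorter in GD15M_CM over the whole list, with a median of 760 bp against 1007 bp in GD15M_LM and 800 bp in CD15M_CM.

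H3K27ac sites at the receptors were often listed in only some of the groups. The 10 windows held 60 sites, of which 18.3% were found in all groups, against 33.9% of the sites in all windows. Sites of CD15M_CM and GD15M_LM without GD15M_CM made up 26.7%, against 7.18%. CHRM3 supplied 31 of the 60 sites, and without it the other 9 genes had 24.1% of 29 sites in all groups and 17.2% missing from GD15M_CM only. Sites of GD15M_CM alone were 27.6% at these 9 genes, against 20.8% in all windows. Sites shared by the pregnant groups without CD15M_CM were 0% at the receptors and, at 1.65%, also rare in all windows.

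Other receptors of the same families were mostly without H3K4me3. Of 16 such genes, 7 in GD15M_CM and 6 in each of the other groups had an H3K4me3 peak, against 73.7% to 75.4% of all genes. H3K27ac was listed at 4 in GD15M_CM, 5 in GD15M_LM and 8 in CD15M_CM, against 73.1% to 75.8% of all genes. HTR7, a Gs-coupled serotonin receptor, had the widest H3K4me3 gap between the circular groups, with percentiles of 66.2 in GD15M_CM and 95.5 in CD15M_CM, and reached 98.8 in GD15M_LM. HTR1B, a Gi-coupled serotonin receptor, had H3K4me3 percentiles of 44.8 in GD15M_CM, 80.4 in GD15M_LM and 59.7 in CD15M_CM. Its H3K27ac percentiles were 71.2 in GD15M_LM and 92.9 in CD15M_CM, with no peak in GD15M_CM. In the opposite direction, HTR1D had 72.6 in GD15M_CM and 51.3 in GD15M_LM for H3K4me3. TACR3, the neurokinin B receptor, was 14.2 points apart in H3K4me3 between GD15M_CM (59.7) and CD15M_CM (74), and had H3K27ac in CD15M_CM (60.1) and not in GD15M_CM. HTR6 had H3K27ac in CD15M_CM (64.2) and none in GD15M_CM. TACR1, the substance P receptor, had H3K27ac in GD15M_CM (56.1) and none in GD15M_LM. Between the circular groups, 0 of these 16 genes were called higher in GD15M_CM for H3K4me3 (2.14% of all genes) or H3K27ac (11.2%). Called higher in CD15M_CM were 1 for H3K4me3 (6.07%) and 4 for H3K27ac (12.1%). Between the layers, 2 were called higher in GD15M_LM for each mark (5.64% for H3K4me3, 10.1% for H3K27ac). In GD15M_CM, 1 was called higher for each mark (5.21% and 15.1%).

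The ligands and their enzymes formed a list of 19 genes, of which 8 in GD15M_CM, 10 in GD15M_LM and 10 in CD15M_CM had H3K4me3. In the same order, 10, 10 and 12 had H3K27ac. Of all genes, 73.7% to 75.4% had H3K4me3 and 73.1% to 75.8% had H3K27ac. EDN3, an endothelin, had no H3K4me3 peak in GD15M_CM and percentiles of 64.2 in GD15M_LM and 62.4 in CD15M_CM. NMU, the ligand of NMUR2, had H3K4me3 in GD15M_CM (percentile 73) and none in GD15M_LM, and H3K27ac in CD15M_CM (88.4) and none in GD15M_CM. EDN1, the endothelin of endothelium, had H3K27ac percentiles of 42.6 in GD15M_CM and 81.7 in CD15M_CM. ECE1, which cuts the endothelin precursors, had 86 in GD15M_CM and 36.1 in GD15M_LM. MAOA, which degrades serotonin, had 32 in GD15M_CM and 79.2 in GD15M_LM. SLC6A4, the serotonin transporter, differed in H3K4me3, with 33.7 in GD15M_CM and 54.5 in CD15M_CM. The tachykinin genes were weakly marked. TAC1 had H3K4me3 in GD15M_LM (30.4) and none in GD15M_CM, and TAC3 had H3K4me3 in CD15M_CM (22.4) and none in GD15M_CM, where it had H3K27ac (48) that GD15M_LM lacked. Between the circular groups, 0 and 3 of the 19 genes were called higher in GD15M_CM and CD15M_CM for H3K4me3 (2.14% and 6.07% of all genes). For H3K27ac these counts were 1 and 5 (11.2% and 12.1%). Between the layers, 3 and 1 were called higher in GD15M_LM and GD15M_CM for H3K4me3 (5.64% and 5.21%). For H3K27ac they were 4 and 2 (10.1% and 15.1%).

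G proteins and their regulators carried H3K4me3 at all 13 genes in every group, with median percentiles of 87.1 in GD15M_CM, 85.2 in GD15M_LM and 80 in CD15M_CM. H3K27ac was listed at 12, 12 and 13 of them, and their medians were 96.7, 96.7 and 95.6. Of all genes, 73.7% to 75.4% had H3K4me3 and 73.1% to 75.8% had H3K27ac. RGS5, a regulator of G protein signalling known from mural cells, had H3K4me3 percentiles of 37.2 in GD15M_CM, 50.3 in GD15M_LM and 70.7 in CD15M_CM, and H3K27ac in CD15M_CM (73.4) but not in GD15M_CM. Its relative RGS4 differed in H3K27ac, with 89.9 in GD15M_CM, 14.5 in GD15M_LM and 80 in CD15M_CM, and in H3K4me3 between GD15M_CM (63.9) and CD15M_CM (81.7). GNAS, which encodes the Gs alpha subunit, had H3K4me3 percentiles of 95.9, 87.2 and 75.7. GNA11, a Gq family alpha subunit, had H3K27ac of 99.4 in GD15M_CM and 17.6 in GD15M_LM. GNAI2, a Gi alpha subunit, had 96.7 and 75.4. ARRB2, an arrestin that ends receptor signalling, had H3K27ac of 85 in GD15M_CM and 48.8 in CD15M_CM, and GRK5, a receptor kinase, had H3K4me3 of 87.1 in GD15M_CM and 98.4 in GD15M_LM. Between the circular groups, 1 gene was called higher in each of them for H3K4me3 and likewise for H3K27ac. The shares of all genes higher in GD15M_CM and CD15M_CM were 2.14% and 6.07% for H3K4me3, and 11.2% and 12.1% for H3K27ac. Between the layers, 0 were called for H3K4me3 (5.64% of all genes higher in GD15M_LM, 5.21% in GD15M_CM). For H3K27ac, 0 were called higher in GD15M_LM (10.1%) and 3 in GD15M_CM (15.1%).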

How the data were processed

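The authors mapped CUT&Tag reads of 18 libraries (12 of the marks, 6 of IgG) to Sscrofa11.1 with BWA 0.7.17-r1188, filtered them with SAMtools 1.9 and Picard 2.8.3, pooled both gilts of a group and called peaks with MACS2 2.2.6 against IgG. The 6 deposited lists give the fold enrichment of a peak, a ratio over IgG, and −log10 of its p-value. The −log10 p column has an unreadable header and was identified by its place in the MACS2 output and by the label that the paper's supplement gives it. How mark and IgG were scaled is not given in the sources used here.

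Genes were those of RefSeq Sscrofa11.1 on chromosomes 1 to 18, X and Y, each with 3 kb on both sides, and any overlap counted. Peaks were ranked by fold enrichment in their own list (Python 3.11.15, pandas 2.3.3, NumPy 2.4.6, Matplotlib 3.10.9), and the overlap code was tested on simulated data. No test was run, since lists of pooled gilts hold no replicates. A call needed 20 percentile points. The 10 genes and the gene lists were chosen with earlier results of these data known. Named beside them were the 3 genes of each list with the largest difference per comparison and mark, and the 3 genes nearest to the receptor with the widest H3K4me3 range. HTR2B, HTR4 and TACR2 have no such range, as they lack the mark. Of the marker genes, S100B, ELAVL4 and MSLN were not placed. The alternatives were windows with 1 kb and 10 kb, a strict threshold, the same number of top peaks, peaks merged within 1 kb, 50% of a peak inside the window, ranks by −log10 p, a limit of 10 points and all 28210 RefSeq genes as background. A window around the transcription start and promoter sequence features, both planned, were not run because strand and sequence were not used here. The count of genes lowest in GD15M_CM and the CHRM3 peak numbers were recomputed under alternatives chosen after seeing the data.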

Additional observations from a re-analysis of the deposited data

How the results depend on the processing

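The sign of the 40 receptor differences (10 genes, 2 marks, 2 comparisons) was kept 40 times with windows of 1 kb or 10 kb, with 50% of a peak inside and with the same number of top peaks, 39 times with peaks merged within 1 kb, 37 times by −log10 p and 28 times under the strict threshold, where 11 became 0 because no peak was left. Differences of 0, with no peak in either group, have no sign and were counted here as kept. For H3K4me3 they numbered 3 between the circular groups and 4 between the layers. For H3K27ac there was 1 in each comparison. No called difference changed its sign in these settings. Receptors that kept H3K27ac under the strict threshold were 1 for GD15M_CM, 4 for GD15M_LM and 3 for CD15M_CM. Those H3K27ac lists then held 9711, 11306 and 10200 peaks in the same order. What share of all genes kept a strict H3K27ac peak was not computed, so these receptor counts have no background to be set against. H3K4me3 calls higher in CD15M_CM than in GD15M_CM numbered 5 under the strict threshold (13.4% of all genes), 3 with merged peaks (10.7%) and 5 at 10 points (17.6%). H3K4me3 calls higher in GD15M_LM than in GD15M_CM numbered 5 under the strict threshold (14.6%), 4 with merged peaks (10.4%), 5 at 10 points (14.7%) and 0 by −log10 p (3.44%). H3K27ac calls higher in GD15M_CM than in GD15M_LM fell to 0 under the strict threshold (15.1%) and to 1 with the same number of top peaks (11.4%). H3K27ac calls higher in CD15M_CM than in GD15M_CM remained 3 in number under the strict threshold (15.7% of all genes), but for other genes. Those higher in GD15M_LM than in GD15M_CM numbered 4 under that threshold (20.6%). With the 10 kb window they numbered 2, without TACR2, and the share of all genes was not computed for it. CHRM3 had 0, 3 and 3 H3K27ac peaks in GD15M_CM, GD15M_LM and CD15M_CM under the strict threshold, and 16 in CD15M_CM with the same number of top peaks. Fewer peaks per list are part of the strict threshold, and the cause of the other changes was not tested. GD15M_CM had the lowest H3K4me3 percentile at 6 of 6 genes under the strict threshold, with merged peaks and by −log10 p, against 39.3%, 42.7% and 37.1% of all such genes, and at 5 with the same number of top peaks (36.4%). With all RefSeq genes as background, 60% to 64.9% of genes had a peak. No paired analysis was possible because each list pools both gilts of a group, and for the same reason no gilt could be left out. Depth per library is unknown from the lists, so whether the mark was absent or undetected where no peak was called cannot be told.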

Other observations

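Markers of cell types not described above gave these values. The 3 macrophage markers had median H3K4me3 percentiles of 47.1 (GD15M_CM), 54.1 (GD15M_LM) and 60.8 (CD15M_CM). Among stromal genes, the 4 interstitial and fibroblast markers (KIT, ANO1, PDGFRA and DCN) had 69.4, 66.1 and 78.6 in the same order. The 3 mesothelial markers that could be placed had 54.2, 61 and 59.9. Of the 3 placed markers of neurons and glia, 0 had H3K4me3 in GD15M_CM and 1 in each of the other groups. The muscarinic, serotonin and tachykinin receptors are known from nerves as well as from muscle.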
